A study of Homo sapiens with 16 samples.

Results

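Replication-dependent histone genes code for the core and linker histones that package newly copied DNA. They were taken from the count table by symbol, as H1-1 to H1-6 and as H2AC, H2BC, H3C or H4C followed by a number, with the older names HIST1H, HIST2H, HIST3H and HIST4H also read and pseudogenes left out. This rule found 70 of the 58787 genes in the table, and 20 pseudogenes were set aside. The 70 genes comprise 6 for the linker histone H1, 17 for H2A, 18 for H2B, 14 for H3 and 15 for H4. On GRCh38, 55 lie in the HIST1 cluster (chr6:25726132-27893843), 11 in HIST2 (chr1:149782689-149887916), 3 in HIST3 (chr1:228424845-228460470) and 1 in HIST4 on chromosome 12.

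The libraries came from IMR32, a human neuroblastoma cell line with amplified MYCN, labelled as brain tissue and as neuroblasts. Cells received si45, si46 or si47, which are 3 siRNAs to TPX2, or the non-targeting siRNA siNTC, with 4 biological replicates in each of the 4 groups. The table's column names place all 16 libraries at 48 h. All groups share this 1 line, so none of the values speaks for other neuroblastoma cells. The question addressed by the design is which transcripts change when TPX2, a spindle protein that activates the kinase AURKA, is depleted.

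Most replication-dependent histone mRNAs carry no poly(A) tail. They end just after a short stem-loop, which is bound by SLBP and is cut by a machinery that pairs with U7 small nuclear RNA, and they are made mainly in S phase. Many of these genes also hold polyadenylation signals further downstream, and polyadenylated histone transcripts that run past the stem-loop are known from cells that leave the cell cycle or differentiate. A 3' end kit (QuantSeq) primes with oligo(dT), so the reads described here mark histone RNA that was polyadenylated or that was primed at an internal run of A, and not the bulk of histone mRNA.

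The targeted gene was checked first. TPX2 stood at 327 ± 27.1 CPM in siNTC (SD, n = 4), against 91.6 ± 19.8 under si45, 81.7 ± 14.3 under si46 and 71.5 ± 3.37 under si47, where CPM is the count scaled to a TMM library size. Every knockdown library lay below every control library (two-sided exact permutation test, p = 0.0286 for each siRNA, the smallest p that 4 against 4 allow). Total counts ran from 5318159 to 7864343 per library. All 9 markers of adrenergic neuroblastoma cells were detected and summed to 5743 to 6192 CPM in siNTC, against 6062 to 6823 with si45, 6045 to 6564 with si46 and 6275 to 7168 with si47. The si47 range lay wholly above siNTC, and its part in the si47 results was not tested. Markers of mesenchymal cells summed to between 260.0 and 327 CPM and epithelial markers to between 1.86 and 9.65 CPM. Most of the mesenchymal sum was TWIST1, at 243 to 261 CPM in group means, while PRRX1, COL1A2 and COL3A1 held 1, 12 and 39 counts over all libraries. Of the 4 blood markers, CD3E, LYZ and HBB were at 0 throughout. None of the mesenchymal, epithelial and blood sums had its range in the knockdown groups apart from that in siNTC.

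The histone genes took a small share of each library, and most of that share was 1 gene. They held 0.426% to 0.519% of all counts in siNTC, against 0.295% to 0.446% with si45, 0.281% to 0.373% with si46 and 0.217% to 0.363% with si47. H4 genes gave 80.9% of the histone counts, H1 genes 10.5%, H2A genes 4.89%, H2B genes 3.25% and H3 genes 0.399%. H4C3 alone made up 70.2% to 85.7% of the histone CPM in a library. The next highest mean levels over all libraries were H1-2 at 260.5 CPM, H2AC20 at 69.6, H2AC14 at 63.5, H1-4 at 54.6 and H1-3 at 46.9. CPM is not divided by transcript length, since reads of a 3' end kit come from transcript ends.

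A low-count filter kept 41 of the 70 genes for testing, and these held 99.8% of the histone counts. Of the 29 genes not tested, 7 had no count in any library (H2AC1, H2AC7, H2BC10, H3-4, H3C4, H3C14 and H4C6), which allows up to 0.564 CPM in the smallest library and 0.381 CPM in the largest (3 counts each, for counting error only, since PCR reads without molecular identifiers are not independent molecules). The other 22 had at most 98 counts over all libraries. The near-identical gene pairs H2AC18 and H2AC19, H3C14 and H3C15, and H4C14 and H4C15 share at least 97.1% of the 50-base words of 1 partner and had 0 to 6 counts each, and how reads with several matches were counted is not given in the sources used here. H2AC7 and H3C4 lie wholly inside a longer protein-coding gene model on the same strand (ENSG00000282988) that had 905 counts.

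The annotated ends of these genes are shown here because the genes that rose, described further on, all have long annotated ends. In the GENCODE v29 annotation of GRCh38, 34 of the 70 genes stop at the stop codon, 11 have 1 to 200 bases after it, and 25 have more than 200. A hairpin of 6 exact base pairs starting with GG around a 4-base loop starting with TTT was found after the stop codon in 30 genes, in 22 of the 25 with long ends and 8 of the 11 with short ends. The annotation gives the others no sequence there or no exact match, which says nothing on whether their RNA has a stem-loop. The hairpins took 4 forms, shared by 17, 5, 5 and 3 genes, and 1 gene of each form is printed with its loop in capitals and its position on GRCh38.
H2BC8 (chr6:26216218-26216233, minus strand): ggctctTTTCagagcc
H2BC4 (chr6:26123472-26123487, minus strand): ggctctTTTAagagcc
H4C5 (chr6:26205001-26205016, plus strand): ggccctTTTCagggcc
H4C9 (chr6:27139654-27139669, plus strand): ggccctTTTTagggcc

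Annotated transcripts of the genes with long ends run on past this hairpin. The hairpin starts 29 bases after the stop codon in H2BC8, and the transcript goes on for another 1059 bases. In H2AC25 the annotated transcript extends 390 bases past the hairpin, in H2BC21 1729, in H2BC26 1917, in H4C5 1022, in H4C9 212 and in H2BC9 1640. A hexamer AATAAA or ATTAAA stands within the last 40 bases of an annotated transcript in 23 of the 70 genes, 20 of them among the 25 with long ends. None was found there in H2BC8, H2BC26 and H4C9, which are among the genes that rose. The last 30 bases of 5 transcripts with the hexamer, all from the 3' UTR, are printed with it in capitals.
H2AC25 (chr1:228456979-228457008, minus strand): tctgatATTAAAagtatttatgatctctaa
H2BC21 (chr1:149884459-149884488, minus strand): gttattAATAAAgttaccaattaatttaaa
H4C5 (chr6:26206009-26206038, plus strand): ctctgaaAATAAAgtctttgttacttcctg
H2AC6 (chr6:26139087-26139116, plus strand): tAATAAAaggtaatgcaaagggagaggaaa
H2BC9 (chr6:26253681-26253710, plus strand): aattttttAATAAAaggtttttttaatgtc

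Other members have runs of A where oligo(dT) could pair without a tail. The most A in any 20 bases of an annotated transcript was 20 in H2BC8 and 18 in H4C3, against a median of 11 over the 70 genes. Both stretches lie at the very end of the 3' UTR as annotated, and the stretch of H1-4 printed below them lies in coding sequence for a lysine-rich tail. Runs of 4 or more A are in capitals.
H4C3 (chr6:26104281-26104310, plus strand): tgagaacttcAAAAAAcAAAAAcAAAAAAA
H2BC8 (chr6:26215164-26215193, minus strand): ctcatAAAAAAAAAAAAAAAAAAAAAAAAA
H1-4 (chr6:26156887-26156916, plus strand): gagccAAAAAAgcgAAAAgcccgAAAAAgg

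After TPX2 knockdown the histone genes moved both ways. H4C3, the H1 genes H1-3 and H1-5, H2AC20, H2BC4 and H2BC9 fell, by 1.40- to 1.79-fold. H2AC25, H2BC8, H2BC21, H2BC26, H4C9, H4C5, H2AC6 and H2BC15 rose, by 2.01- to 8.36-fold. In the contrast of all 3 siRNAs, averaged, with siNTC, 14 of the 41 tested genes passed (8 higher, 6 lower; edgeR quasi-likelihood test, Benjamini-Hochberg adjusted p under 0.05 over 14193 genes), beside 7.14% of all genes tested (3.61% higher, 3.53% lower). Leaving out siNTC replicate 2, 3 or 4 gave 9, 8 and 9 genes. Over all genes, 677 of 14445, 675 of 14473 and 632 of 14481 passed in those fits, against 1014 of 14193 with every library. Whether a lower level comes from fewer cells that make an RNA or from less of it per cell cannot be told apart in bulk libraries.

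The single siRNAs gave fewer calls among the histone genes. With si45, 5 of 41 passed (4 higher, 1 lower), beside 1.34% of all genes tested (1.01% higher, 0.324% lower), and 2 to 3 passed without siNTC replicate 2, siNTC replicate 4, si45 replicate 1 or si45 replicate 2. Over all genes, 97 to 132 passed in those fits, against 190 with every library. With si46, 8 of 41 passed (6 higher, 2 lower), beside 3.4% (2.14% and 1.25%), and 5 passed without siNTC replicate 2, si46 replicate 1 or si46 replicate 2. There the calls over all genes were 318, 351 and 252, against 482 with every library. With si47, 11 of 41 passed (7 higher, 4 lower), beside 9.74% (4.91% and 4.83%). H2AC25, H2BC8, H2BC21 and H4C9 passed with each of the 3 siRNAs. These comparisons share their siNTC libraries.

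**Figure D1:**
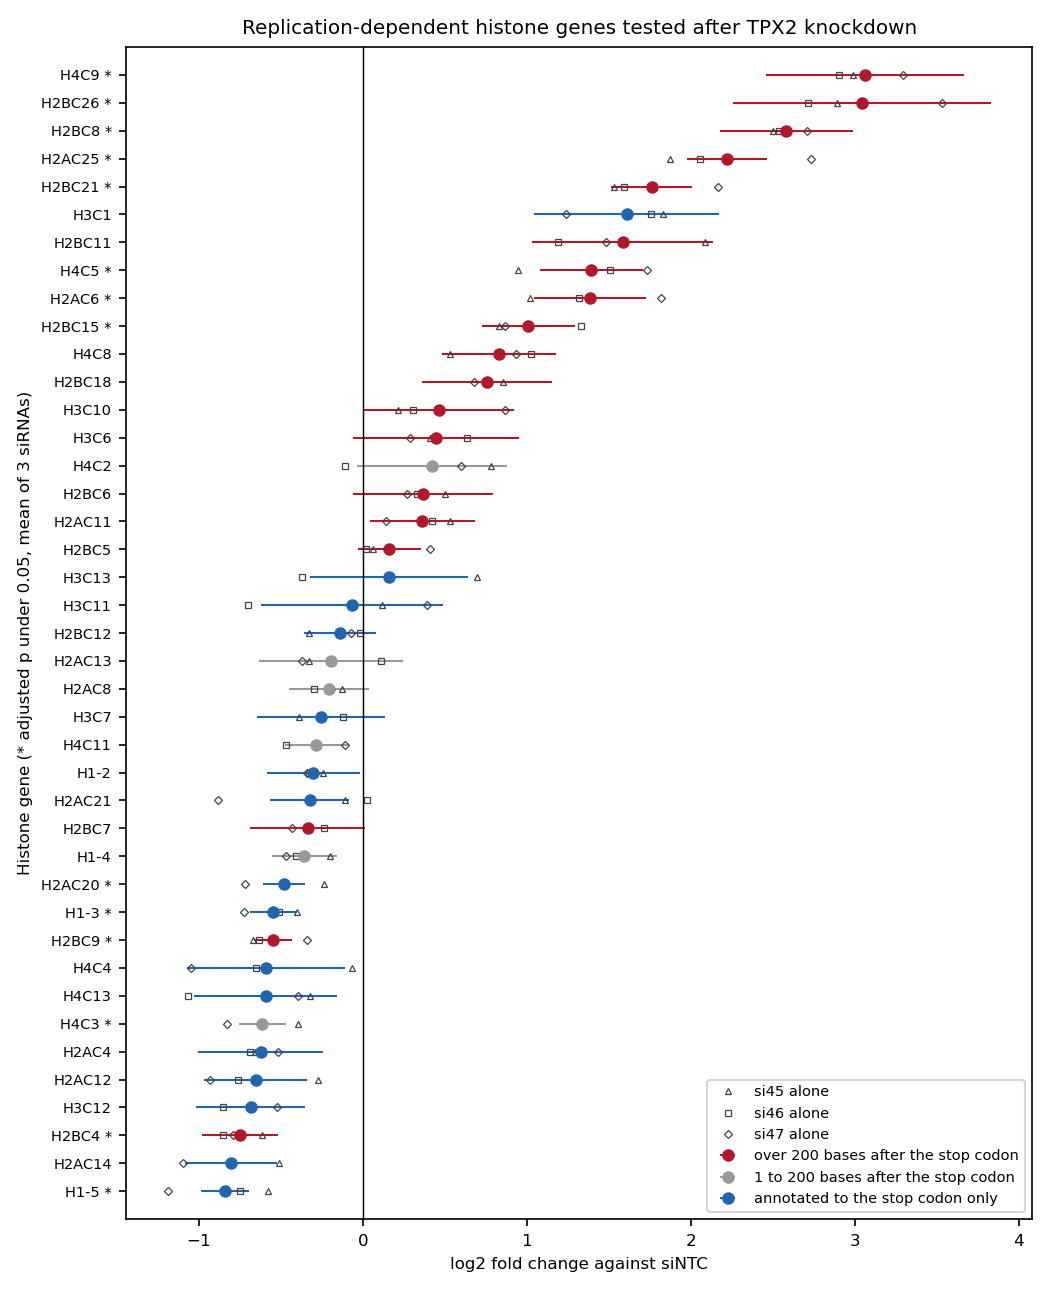
Log2 fold change against siNTC (x axis) of the 41 histone genes tested (y axis, ordered by value). Large points are the mean of the 3 siRNAs with bars of 1 standard error, small symbols are the single siRNAs, colours give the annotated length after the stop codon, and asterisks mark the 14 genes past the threshold; the 8 genes that rose are all of the long-end kind.

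Read by annotated end, the genes that rose were all from 1 kind. Of the 25 genes with over 200 annotated bases after the stop codon, 19 were tested, 8 rose, 2 fell (H2BC4 and H2BC9) and 9 did not pass. Of the 34 genes annotated to the stop codon only, 16 were tested, 3 fell (H1-3, H1-5 and H2AC20) and 13 did not pass. Of the 11 genes with 1 to 200 bases, 6 were tested, and H4C3 was the one that fell. Over all genes tested, 3.61% rose and 3.53% fell. The kinds are shown because of the genes that rose, so this split does not stand apart from those values. If counting used this annotation, reads past the stop codon could not be counted for genes that end there. The difference between the kinds was not tested.

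The filter bears on these counts, because 17 of the 41 genes would not have passed on the siNTC libraries alone, which need 1.68 CPM in all 4. Among them are 3 of the 8 genes that rose (H4C5, H2BC26 and H4C9) and none of the 6 that fell, so genes near the floor in siNTC were tested only where another library was higher. Of the 24 genes that the siNTC libraries alone would have kept, 5 rose (H2AC25, H2BC8, H2BC21, H2AC6 and H2BC15), all with long annotated ends. Over all 14193 genes, whatever their siNTC level, 3.61% rose. The 10 of these 24 with long annotated ends had log2 fold changes from -0.75 to 2.58, and 7 were positive and 3 negative. The 10 annotated to the stop codon only had values from -0.84 to -0.14. The 9 long-end genes that needed a knockdown library to be tested were all positive. Being kept in that way favours a positive sign, so these 9 values do not bear on the kind of end. The 6 stop-codon-only genes that the siNTC libraries alone would not have kept ran from -0.62 to 1.61 (H3C1), with 2 positive and 4 negative, and none passed. The median over all 14193 genes was 0.00 and 50.2% of them were negative. The counting annotation is not given in the sources used here and the table holds genes outside GENCODE v29 (58515 of 58787 are in it), and the part of that annotation in these values was not tested.

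**Figure D2:**
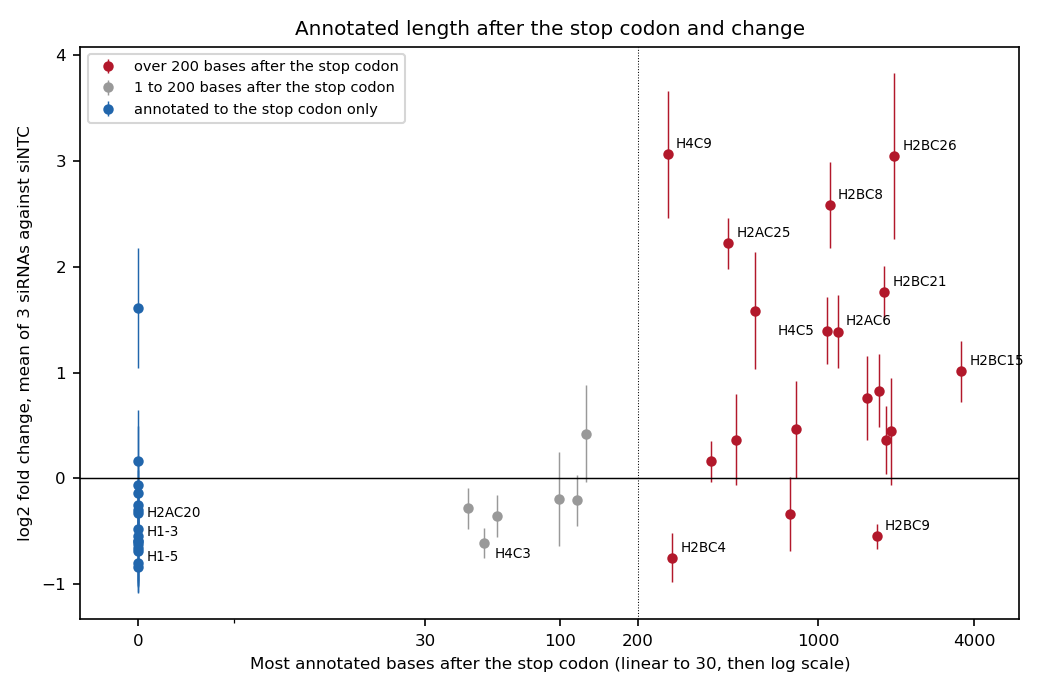
The most annotated bases after the stop codon (x axis, linear to 30 and log scale beyond) against the log2 fold change averaged over the 3 siRNAs (y axis, bars of 1 standard error) for the 41 histone genes tested. All 8 labelled genes above 0 lie right of the dotted line at 200 bases, where H2BC4 and H2BC9 lie below 0.

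The genes were also read by level. The 8 genes at or above a mean of 20 CPM (H4C3, H1-2, H2AC20, H2AC14, H1-4, H1-3, H2BC9 and H1-5) all had negative log2 fold changes, and 5 of them passed as lower. Of all genes tested at that level, 53.6% were negative, and 5.97% passed as lower. Of the 33 tested histone genes under 20 CPM, 14 were negative, 8 passed as higher and H2BC4 as lower. Of all genes tested under 20 CPM, 46.7% were negative, 3.41% passed as higher and 1.10% as lower. The 20 CPM line was chosen after the values were seen, and the relation of level to direction was not tested.

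Among H2A and H2B genes, which form the dimers on the outside of the nucleosome, H2AC25 had the lowest adjusted p. Its siNTC libraries stood at 3.85, 2.03, 3.78 and 4.34 CPM. With si45 it read 14.9, 13.1, 9.02 and 14.2 CPM, with si46 11.8, 18.4, 10.8 and 17.5, and with si47 26.9, 31.8, 14.1 and 20.3. All 12 knockdown libraries were above all 4 controls. The rise was 4.66-fold in the mean contrast (log2 fold change 2.22, SE 0.24, edgeR adjusted p = 1.21e-07), and it passed whichever library was left out.

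H2BC8 is the partner of H2AC8 on HIST1. In siNTC it stood at 4.17, 3.13, 3.97 and 2.95 CPM. The knockdown libraries read 28.4, 29.1, 7.46 and 15.3 CPM with si45, 23.3, 28.2, 10.3 and 21 with si46, and 33.0, 25.6, 17.3 and 17.3 with si47. All 12 lay above the controls, and replicate 3 was the lowest under si45 and si46. The mean rise was 5.99-fold (log2 fold change 2.58, SE 0.41, edgeR adjusted p = 0.00117).

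H2BC21, a gene with a known polyadenylated form, had 3.53, 4.38, 1.70 and 2.78 CPM in siNTC. It read 10.9, 10.9, 7.46 and 7.0 CPM with si45, 9.24, 10.7, 6.57 and 11.5 with si46, and 19.2, 13.1, 11.8 and 12.5 with si47. Again the 2 sets of libraries did not overlap. The mean rise was 3.39-fold (log2 fold change 1.76, SE 0.25, edgeR adjusted p = 8.04e-06). H2AC25, H2BC8 and H2BC21 were the 3 of 41 genes with all 12 knockdown libraries above all controls, beside 1.49% of all genes tested.

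H2AC6, also known in polyadenylated form, rose 2.62-fold (log2 fold change 1.39, SE 0.34, edgeR adjusted p = 0.0105). Its siNTC libraries read 4.01, 2.35, 1.70 and 2.95 CPM, against 8.23, 6.88, 3.29 and 3.97 with si45, 10.3, 8.0, 3.87 and 5.40 with si46, and 17.3, 10.2, 6.72 and 5.08 with si47. Here the groups overlapped, with 9 of 12 knockdown libraries above all controls, and the adjusted p was 0.0565 without siNTC replicate 3.

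H2BC15 rose 2.01-fold (log2 fold change 1.01, SE 0.29, edgeR adjusted p = 0.0242). It had 2.57, 3.13, 3.59 and 4.34 CPM in siNTC, 8.07, 7.19, 3.47 and 5.30 with si45, 5.70, 11.8, 5.39 and 11.7 with si46, and 7.86, 6.71, 6.55 and 3.73 with si47. Of the 12 knockdown libraries 10 lay above all controls. The call was lost without siNTC replicate 1, 2 or 3 (adjusted p = 0.111, 0.0775 and 0.0589). Its gene model holds H2AC16 on the same strand and H2AC15 on the other, and strand use is not given in the sources used here, so reads of these 3 genes cannot be told apart where they overlap.

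H2BC26 was near the floor. It had 2, 3, 0 and 0 counts in siNTC, 11, 16, 9 and 5 with si45, 6, 12, 0 and 17 with si46, and 25, 13, 5 and 20 with si47. In the fit it rose 8.26-fold (log2 fold change 3.05, SE 0.79, edgeR adjusted p = 0.0132), a size that rests on 5 control counts. Without siNTC replicate 3 or 4 the adjusted p was 0.0575 and 0.0652.

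Among H4 genes, which code for 1 protein of the nucleosome core, 8 were tested, of which the abundant H4C3 fell, H4C9 and H4C5 rose and 5 did not pass (H4C8, H4C2, H4C11, H4C4 and H4C13, from 0.83 to -0.59 on the log2 scale). H4C3 stood at 3507, 4093, 3968 and 4340 CPM in siNTC. It read 2187, 3006, 3879 and 3011 CPM with si45, 2307, 2820, 2991 and 2293 with si46, and 1846, 2273, 3023 and 1806 with si47. Replicate 3 was the highest library under each siRNA, and 11 of 12 knockdown libraries lay below all controls. The fall was 1.53-fold (log2 fold change -0.61, SE 0.14, edgeR adjusted p = 0.0188), and the group means were 76.0%, 65.4% and 56.3% of siNTC for si45, si46 and si47. The call was lost without siNTC replicate 2, 3 or 4 (adjusted p = 0.0680, 0.0557 and 0.0720).

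H4C9 had 0.641, 0.313, 0.189 and 0.347 CPM in siNTC, which is 9 counts in all. It read 4.50, 5.20, 1.39 and 1.32 CPM with si45, 2.15, 4.91, 0.337 and 4.66 with si46, and 2.67, 4.17, 4.03 and 4.74 with si47. All but si46 replicate 3 were above the controls. The rise was 8.36-fold in the fit (log2 fold change 3.06, SE 0.60, edgeR adjusted p = 0.00102). H4C5 rose 2.63-fold (log2 fold change 1.39, SE 0.32, edgeR adjusted p = 0.00414), from 3.69, 1.25, 1.89 and 2.6 CPM in siNTC to 5.12, 5.05, 2.77 and 5.30 with si45, 8.36, 10.7, 3.7 and 4.10 with si46, and 8.49, 5.99, 8.23 and 8.80 with si47. Its si45 replicate 3 lay among the controls. H4C11 did not pass, at 9.99 ± 2.25 CPM in siNTC and 7.19 to 9.27 CPM in the knockdown means (adjusted p = 0.433), and it shares 81.2% of its 50-base words with H4C12.

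Without H4C3, the other H4 genes summed to 21.8 ± 4.88 CPM in siNTC, against 27.2 ± 7.46 with si45, 28.3 ± 5.77 with si46 and 32.6 ± 1.53 with si47 (SD, n = 4 each). With it, the H4 sum was 3999 ± 352, 3048 ± 686, 2631 ± 357 and 2270 ± 564 CPM in the same order. The sum over the class thus follows H4C3 and hides the scarcer genes.

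**Figure D3:**
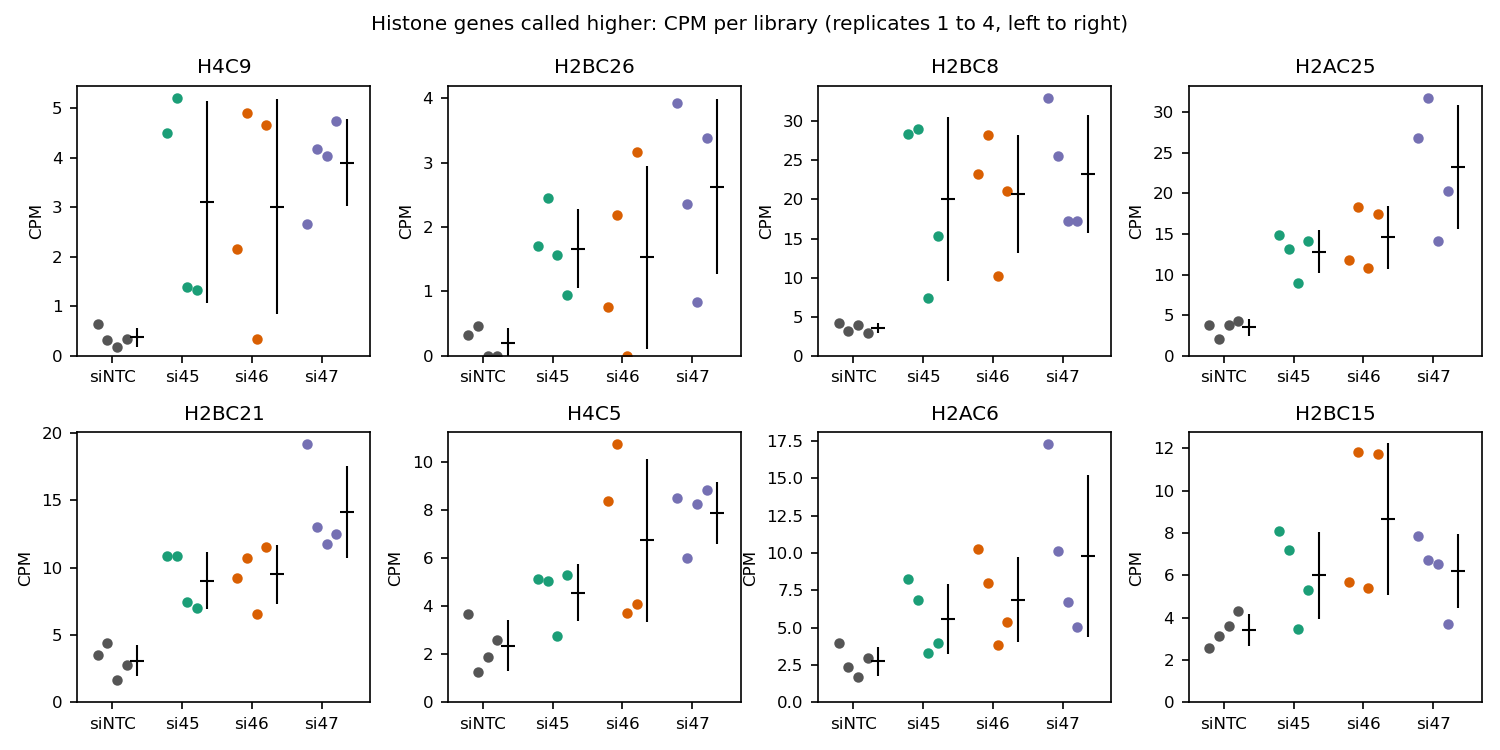
CPM (y axis, linear from 0) in each library for the 8 histone genes that rose, with 4 points per group from replicate 1 to replicate 4 and the mean with 1 SD beside them. In H2AC25, H2BC8 and H2BC21 no knockdown point reaches down to a control point, and replicate 3 is the lowest si46 point in every panel.

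H1 genes code for the linker histones that bind DNA between nucleosomes, and all 4 that were tested had lower means after knockdown. H1-5 had 26.8, 36.6, 30.1 and 42.3 CPM in siNTC. It read 19.7, 19.9, 24.8 and 26.7 CPM with si45, 16, 23.5, 22.2 and 19.6 with si46, and 12.1, 14.0, 22.0 and 11.3 with si47. H1-5 was the 1 gene of 41 with all 12 knockdown libraries below all controls, beside 1.03% of all genes tested, though si45 replicate 4 lay only just below the lowest control. The fall was 1.79-fold (log2 fold change -0.84, SE 0.15, edgeR adjusted p = 0.000208) and was kept whichever library was left out.

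H1-3 fell 1.46-fold (log2 fold change -0.55, SE 0.15, edgeR adjusted p = 0.0240), from 47.3, 59.1, 68.3 and 69.9 CPM in siNTC to 31.2, 48.2, 46.5 and 59.2 with si45, 36, 52.0, 40.6 and 43.6 with si46, and 35.2, 37.4, 49.2 and 26.2 with si47. The groups overlapped, and 8 of 12 knockdown libraries lay below all controls. The call was lost without siNTC replicate 2, 3 or 4 (adjusted p = 0.0685, 0.0992 and 0.108). H1-2, the most abundant H1 gene, spread over 210 to 440 CPM within siNTC (306, 440, 210 and 257) and over 134 to 371 CPM in the knockdown libraries, and did not pass (log2 fold change -0.30, SE 0.28, adjusted p = 0.614). Replicate 2 was its highest library in each of the 4 groups, and each of the 12 knockdown libraries lay below the siNTC library of the same number. With the replicate number as a block H1-2 passed (-0.32, edgeR adjusted p = 0.00877), in a fit that rests on a shared number. H1-4 stood at 65.2 ± 7.99 CPM in siNTC and 56.8 ± 15.9, 49.2 ± 14.6 and 47.2 ± 14.6 with si45, si46 and si47, and did not pass (adjusted p = 0.340).

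Of the H2A genes, H2AC20 fell 1.40-fold (log2 fold change -0.48, SE 0.13, edgeR adjusted p = 0.0205). It had 81.9, 101, 78.3 and 90.4 CPM in siNTC, 66.0, 83.5, 76.8 and 72.1 with si45, 60.3, 72.9, 70.9 and 46.8 with si46, and 64.3, 52.3, 63.2 and 33.7 with si47. All but si45 replicate 2 lay below the controls. The call was lost without siNTC replicate 2 or 4 (adjusted p = 0.111 and 0.0691). Of its 50-base words, 30.5% are shared with H2AC18, so its reads are not wholly its own by sequence. H2AC14 had a larger mean difference with more spread and did not pass (log2 fold change -0.80, SE 0.28, adjusted p = 0.116), at 92.5 ± 16.5 CPM in siNTC and 65.0 ± 19.5, 53.2 ± 24.8 and 43.2 ± 17.0 with si45, si46 and si47. It shares 83.7% of its 50-base words with H2AC13.

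Of the H2B genes, H2BC9 and H2BC4 fell although their annotated ends are long. H2BC9 stood at 40.1, 55.1, 44.8 and 63.3 CPM in siNTC, 28.4, 29.4, 35.5 and 34.4 with si45, 24.3, 32.2, 38.4 and 36.9 with si46, and 33.5, 41.4, 43.9 and 42.0 with si47. Under si45 and si46 every library was below every control, while 3 of the 4 si47 libraries lay among them. It fell 1.46-fold (log2 fold change -0.55, SE 0.12, edgeR adjusted p = 0.00227). H2BC4 fell 1.68-fold (log2 fold change -0.75, SE 0.23, edgeR adjusted p = 0.0455), from 9.14, 21.6, 14.8 and 16.7 CPM in siNTC to 5.90, 15.1, 9.88 and 9.65 with si45, 11.5, 7.46, 8.75 and 6.33 with si46, and 9.12, 9.43, 12.9 and 4.40 with si47. The groups overlapped, and the call was lost on leaving out any of 10 libraries (siNTC 2, 3 and 4, si45 1 and 4, si46 2, 3 and 4, si47 1 and 2), with adjusted p of up to 0.248 without siNTC replicate 2. H2BC5 did not pass (log2 fold change 0.16, SE 0.19, adjusted p = 0.705), at 14.1 ± 1.44 CPM in siNTC and 14.3 to 18.6 CPM in the knockdown means.

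None of the 7 tested H3 genes passed, and all were scarce. H3C1 had the largest log2 fold change of them (1.61), from 0.586 ± 0.196 CPM in siNTC to 1.41 to 2.14 CPM in the knockdown means. For H3C1, 10 of 12 knockdown libraries lay above all controls, which held 14 counts in all. H3C7 stood at 3.22 ± 0.690 CPM in siNTC and 2.43 to 3.01 CPM in the knockdown means (adjusted p = 0.774), H3C12 at 3.92 ± 1.37 and 2.11 to 2.72 (adjusted p = 0.233), and H3C10 at 1.69 ± 1.26 and 1.94 to 3.07 (adjusted p = 0.624). At an unadjusted p under 0.05, 2 of the 7 passed, beside 20.4% of all genes tested. The H3 genes together summed to 14.2 ± 2.78 CPM in siNTC, against 15.4 ± 5.49 with si45, 14.4 ± 4.53 with si46 and 15.1 ± 3.79 with si47.

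**Figure D4:**
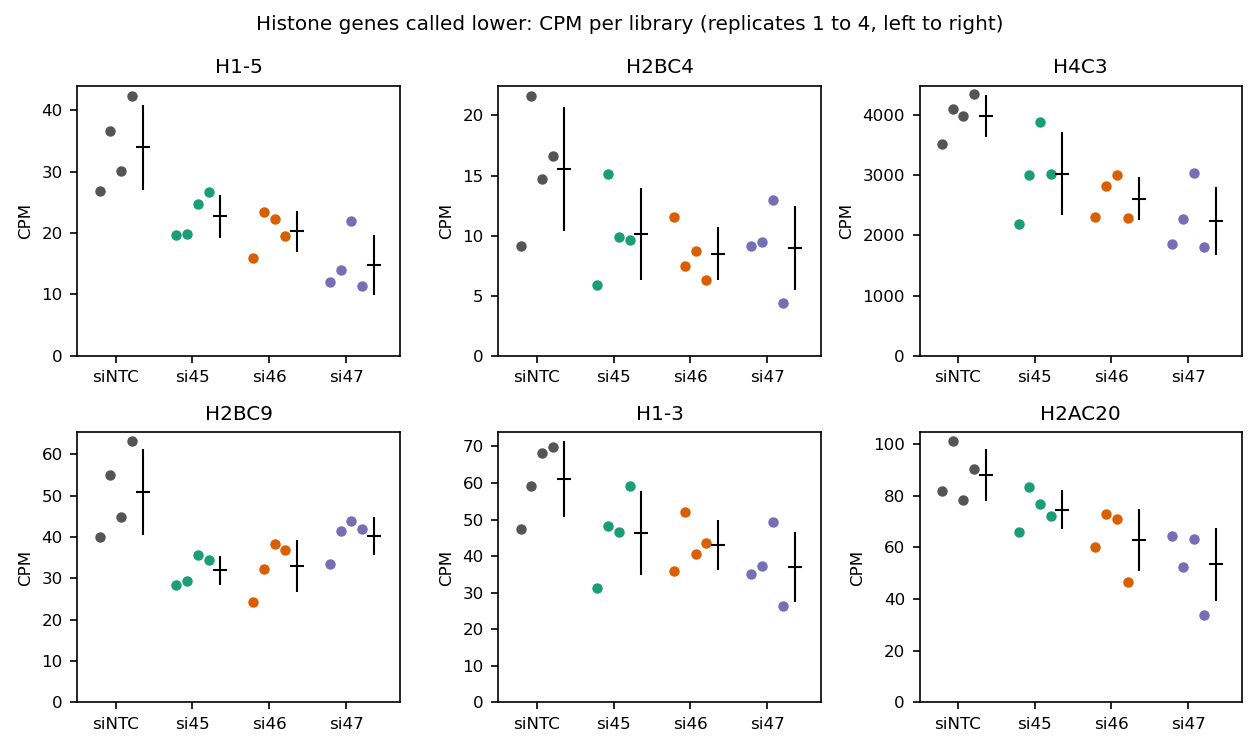
CPM (y axis, linear from 0) in each library for the 6 histone genes that fell, drawn as 4 points per group from replicate 1 to replicate 4 with the mean and 1 SD beside them. H1-5 has every knockdown point below every control point, and replicate 3 is the highest knockdown point of each siRNA for H4C3.

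Neighbouring genes did not always move together. H2A and H2B genes often stand head to head over 1 shared promoter, and 11 such pairs were found, with 218 to 330 bases between the gene starts. Both genes were tested in 6 pairs. H2AC25 and H2BC26, on HIST3, both rose. In 3 pairs the genes parted: H2BC21 rose (log2 fold change 1.76) where H2AC20 fell (-0.48), H2AC6 rose (1.39) where H2BC4 fell (-0.75), and H2BC8 rose (2.58) where H2AC8 did not pass (-0.21, adjusted p = 0.692). In each of these 3 pairs the gene that rose has the longer annotated end, with 1801 bases after the stop codon against 0, 1187 against 272 and 1104 against 116. The pair H2AC11 and H2BC11 goes the other way, though neither gene passed. There H2BC11 had the larger value (1.58, edgeR adjusted p = 0.0767, against 0.36) and the shorter end (569 bases against 1827). H2AC12 and H2BC12, both annotated to the stop codon only, did not pass (-0.65 and -0.14). The difference within a pair was not tested.

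The promoters are shown because these partners share them. In the RefSeq windows (GRCh38.p14, 250 bases before to 50 after a gene start), which matched 65 of the 70 genes, the octamer ATTTGCAT on either strand stood in 14 of 18 H2B, 11 of 16 H2A, 1 of 12 H3, 0 of 6 H1 and 0 of 13 H4 genes, beside 1.77% of all 35116 windows. CCAAT, on either strand, was in all H1, H2A, H2B and H3 windows and in 3 of 13 H4 windows, beside 34.6% of all windows. TATAAA was in 43 of 65, beside 11.5%. A single copy of the octamer lies in the windows of both partners in 8 of the 11 pairs, and the 3 pairs that parted are among these. The 30 bases around that copy are printed on the strand of the H2B gene with the octamer in capitals.
H2BC21 and H2AC20 (chr1:149886710-149886739, minus strand): tcggagccctaATTTGCATaaggtggttat
H2BC4 and H2AC6 (chr6:26124031-26124060, minus strand): tttcatacctcATTTGCATagctctgccca
H2BC8 and H2AC8 (chr6:26216718-26216747, minus strand): ttgaattctttATTTGCATgaaaggcctat

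**Figure D5:**
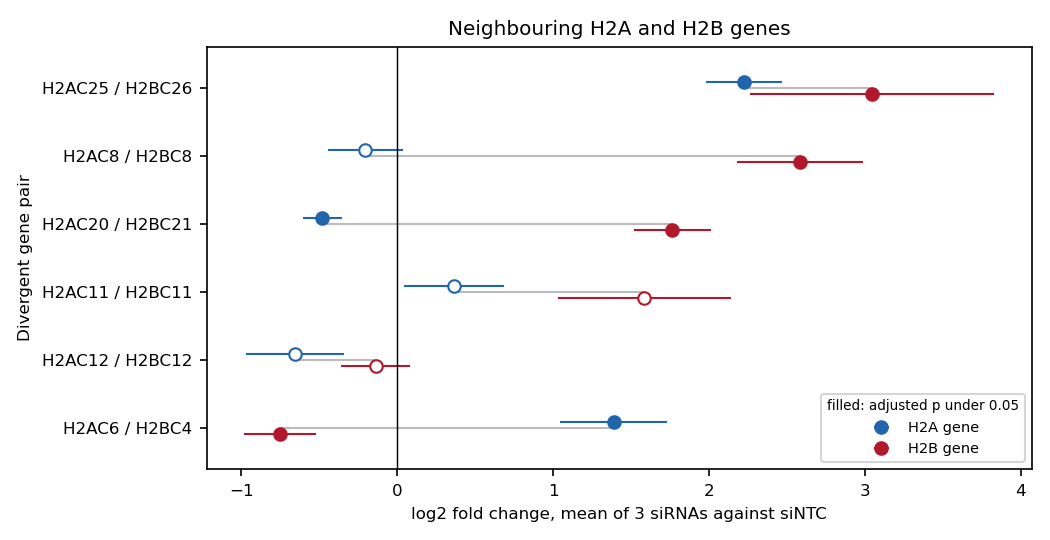
Log2 fold change from siNTC averaged over the 3 siRNAs (x axis, bars of 1 standard error) for both genes of the 6 head-to-head H2A and H2B pairs with both genes tested (y axis). Filled points passed the threshold; the partners lie on opposite sides of 0 in H2AC20 with H2BC21, H2AC6 with H2BC4 and H2AC8 with H2BC8.

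The siRNAs were next set against each other. None of the 41 genes passed between any 2 siRNAs with edgeR, beside 0.169% of all genes for si47 against si45, 0.0493% for si47 against si46 and 0.0282% for si46 against si45. None passed with DESeq2 either, beside 0.754%, 0.155% and 0.0705% in that order. At an unadjusted p under 0.05 there were 9, 4 and 0 genes, beside 10.4%, 7.29% and 4.1%. The 95% intervals of these log2 differences had median widths of 1.49, 1.5 and 1.48, so these counts do not show that the siRNAs act alike. The numbered replicates of si45 and si47 deviated together (as given with the processing). With the replicate number as a block over all 16 libraries, siNTC and si46 included, 4 genes differed between si45 and si47, beside 2.8% of all genes. The pairing was read from the same values, so these 4 calls are not independent of that choice. H2AC25 was higher with si47 (log2 difference 0.84, SE 0.20, edgeR adjusted p = 0.00931). H4C3 (-0.43, SE 0.10, edgeR adjusted p = 0.0271), H1-5 (-0.62, SE 0.17, adjusted p = 0.0277) and H2AC20 (-0.49, SE 0.13, adjusted p = 0.0356) were lower. In each of these 4 genes, which were picked for a difference between si47 and si45, the si47 mean was the one farthest from siNTC. The lowest mean TPX2 was also that of si47. Without the block, TPX2 did not pass between si47 and si45 (log2 difference -0.36, edgeR adjusted p = 0.246). It did not pass between si47 and si46 either (-0.20, edgeR adjusted p = 0.785). The part of TPX2 in these 4 differences was not tested.

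Some libraries of replicate 3 stood closer to siNTC for the genes that rose. Among these 8 genes, the lowest si46 library was replicate 3 for all 8, and the lowest si45 library was replicate 3 for 5 and replicate 4 for 3. With si47 no library stood out, as replicates 3 and 4 were each the lowest for 3 genes. TPX2 was the highest in replicate 3 of each siRNA, at 121 CPM with si45, 93.8 with si46 and 76.3 with si47. The part of the remaining TPX2 in these values was not tested.

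Genes that work with these histones were read from lists. Of 22 S phase genes, 12 fell in the mean contrast, beside 3.53% of all genes tested, and all 22 had negative log2 fold changes, with a median of -0.29. The lowest p values were those of MCM4 (-0.47, SE 0.07, edgeR adjusted p = 4.88e-05) and MCM3 (-0.43), subunits of the replicative helicase, and of CDT1 (-0.56), which loads it. Single siRNAs lowered 0 of the 22 with si45 (8 passed an unadjusted p under 0.05, beside 11.4% of all genes), 5 with si46 and 15 with si47, in the same edgeR fit. The shares of all genes that fell were 0.324%, 1.25% and 4.83% in that order. These values stand beside the fall of H4C3, H1-3 and H1-5, and their part in it was not tested.

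Of 19 histone chaperone and new-histone genes, 6 fell, beside 3.53% of all genes tested, and all 19 were negative, with a median of -0.20. NASP, a carrier of soluble H3 and H4, went from 809 ± 27.2 CPM in siNTC to 670 ± 58.3, 624 ± 21.1 and 555 ± 61.5 with si45, si46 and si47 (log2 fold change -0.40, SE 0.07, edgeR adjusted p = 0.000123). CHAF1A, a subunit of the chromatin assembly factor that places histones behind the fork, fell by 0.47 on the log2 scale (adjusted p = 0.000131), and MMS22L by 0.44 (adjusted p = 0.00380).

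Of 28 genes for transcription, processing and decay of histone RNA, 2 fell (7.14% of the list), beside 3.53% of all genes tested, and the median was -0.06. CASP8AP2, a protein of the histone locus body, fell by 0.38 (SE 0.07, edgeR adjusted p = 0.000743), and CDK2, the kinase that acts there with cyclin E, by 0.41 (SE 0.09, adjusted p = 0.00431). SLBP stood at 31.7 ± 4.97 CPM in siNTC and 33.3 ± 4.90, 28.8 ± 1.94 and 27.4 ± 3.19 with si45, si46 and si47 (log2 fold change -0.09, SE 0.12, adjusted p = 0.716). NPAT, the activator of these genes, did not pass either (-0.06, SE 0.12, adjusted p = 0.826), and neither did CCNE1 (-0.47, SE 0.16, adjusted p = 0.0730).

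Of 6 histone genes chosen as known to have polyadenylated forms, H2BC21 and H2AC6 rose, H2BC4 fell, and H1-2, H2BC5 and H2BC12 did not pass, so that list had a median of 0.01. Genes from a list of replication-independent histones, H2AX among them, were read beside these 6. H3-3B, a gene for the variant H3.3, did not pass in the mean contrast (log2 fold change 0.24, SE 0.08, edgeR adjusted p = 0.0560) and rose with si47 (0.38, adjusted p = 0.00757). H3-3A (0.14, SE 0.12, adjusted p = 0.550) and H2AX (-0.32, SE 0.14, adjusted p = 0.174) did not pass.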

How the data were processed

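The authors deposited 1 table of raw read counts per gene for 16 libraries, whole numbers that were not normalized. Per the labels' protocols, a Lexogen QuantSeq kit for 3' ends and 15 PCR cycles gave the libraries. Per the submitters' processing notes, FastQC 0.11.7, STAR 2.7.2b, edgeR 3.36.0, limma 3.50.3 and GRCh38 were used, with no role stated. The counter, its annotation, strand use and reads with several matches are not given in the sources used here, so reads of near-identical or overlapping histone genes may have been lost or shared.

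Counts were fitted with edgeR 4.0.16 in R 4.3.3 (filterByExpr with minimum count 10 and minimum total 15, TMM, 1 robust quasi-likelihood model of 4 group means, no covariate), tested on simulated data first. p-values were adjusted over 14193 genes, threshold 0.05. Alternatives used limma 3.58.1, DESeq2 1.42.0 and other settings. Symbols matched 58434 of 58787 genes. Transcript sequences are GENCODE v29, promoters RefSeq. Named genes were TPX2, the members called against siNTC, the 10 most abundant, the 3 most abundant per class and up to 3 per list with the lowest p. The members and lists were chosen with earlier results of these data known. Results on part of the list of replication-independent histone genes are not reported here. Library pairs within groups differed by more than sampling noise (chi-square per degree of freedom 4.58 to 10.6). Deviations of same-numbered si45 and si47 libraries correlated over 0.1 in all 4 pairs (0.120 to 0.242), which no other 2 groups did, so these numbers were taken as pairs, from the values and not the labels. The margin was narrow, as si45 with si46 (0.0716 to 0.247) and si46 with si47 (0.0854 to 0.209) were over 0.1 in 3 of 4 pairs. Libraries of unlike number were not compared. Figures used matplotlib.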

Additional observations from a re-analysis of the deposited data

Results flagged for a closer look

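Of 96 groups of 4 libraries checked over the named histone genes and TPX2, 4 held 1 library far from the other 3, where chance gives about 4.8. H4C5 read 2.77 CPM in si45 replicate 3 and 5.05 to 5.30 in the others, and H3C10 0.694 CPM in the same library against 2.27 to 2.48. TPX2 was 121 CPM there, against 79.4 to 85.1. H1-4 read 80.4 CPM in si45 replicate 2 and 47.4 to 51.3 in the others.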

How the results depend on the processing

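Over the mean contrast the 14 histone calls were 14 with DESeq2, with RLE or upper-quartile factors and without a low-count filter, 11 with limma-voom, 8 with at least 10 counts in every library, 7 at an adjusted p under 0.01, 19 with the replicate block, and 8 to 16 with 1 library left out. Over all genes, the 1014 calls became 1233 with DESeq2, 924 with limma-voom and 814 of 11409 with 10 counts in every library. They became 1817 with the block, and 629 to 1388 with 1 library left out. With si45 the 5 calls became 3 at 0.01, with limma-voom or with 10 counts in every library, 10 with the replicate block, and 2 to 6 with 1 library left out. With si46 the 8 became 4 at 0.01 or with limma-voom, 5 with 10 counts in every library, 13 without a filter, 15 with the replicate block, and 5 to 10 with 1 left out. With si47 the 11 became 6 with 10 counts in every library, 17 with the block, and 10 to 12 with 1 left out. Over all genes, the block gave 577 calls with si45, 1073 with si46 and 2198 with si47, against 190, 482 and 1382 without it. Between si47 and si45 the 0 became 2 without a filter, 4 with the block, and 0 to 2 with 1 left out, the 2 coming without si47 replicate 3. Over all genes, the 24 calls there became 166 without a filter, 398 with the block and 147 without si47 replicate 3. The other comparisons between siRNAs stayed at 0 with the block and in the other settings run. The cause was not tested, except that 10 counts in every library removes genes that are scarce in siNTC. By the rule used for si45 and si47, replicate numbers pair no siRNA group with siNTC. Same-numbered libraries still correlated positively there (0.0752 to 0.184 for si45, 0.0387 to 0.112 for si46, 0.0188 to 0.114 for si47). The blocked counts against siNTC thus rest on a shared number, and what that number shares was not tested. Of 498 values of the 22 named histone genes under alternatives, 467 kept their direction and side of the threshold, 28 kept direction but lost the call, and 3 gained it, all with the block: H1-2 (-0.32, edgeR adjusted p = 0.00877, against 0.614 without the block), H2AC14 (-0.85) and H1-4 (-0.39). Fitting only the groups compared gives no other value for the mean contrast. TPX2 ranged from -2.07 to -1.97 with 1 library left out. Counts under about 10 per library limit H2BC26, H4C9 and the H3 genes.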
